A study of Mus musculus with 6 samples.

Results

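The TAM receptors are the receptor tyrosine kinases Tyro3, Axl and Mertk, and Gas6 and Pros1 encode the secreted proteins that bridge them to dying cells. Their transcripts were measured in mammary glands on day 2 of involution, the regression that follows weaning. Every probe set (a group of short probes on the array that is read out as 1 value) was taken whose platform annotation names exactly 1 gene symbol and whose symbol is 1 of these 5. This gave 8 of the 45101 probe sets, 2 each for Tyro3, Axl and Gas6 and 1 each for Mertk and Pros1. Glands came from 3 Rac1-/- mice (Rac1fx/fxYFP;WAPiCreTg/•, called Nas496, Nas497 and Nas518) and 3 WT mice (Rac1fx/fxYFP without Cre, called Nas478, Nas483 and Nas484), age-matched, with 1 array per mouse. Both genotypes therefore carried the floxed Rac1 alleles and the YFP reporter, and only the Rac1-/- mice carried Cre, so Cre itself and the loss of Rac1 cannot be told apart on these arrays. Cre was driven by the whey acidic protein promoter, which is active in luminal epithelial cells, so myoepithelial, stromal and immune cells of a Rac1-/- gland kept Rac1. The RNA was that of a whole inguinal gland, in which fewer cells of a type and less RNA per cell cannot be told apart.

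Phosphatidylserine on the surface of a dying cell is bound by the Gla domain of Gas6 or of protein S, the product of Pros1, after a vitamin K dependent carboxylation of that domain. The other end of the ligand binds and activates a TAM receptor on the phagocyte. Gas6 activates all of these receptors and protein S acts on Tyro3 and Mertk. In mouse macrophages Mertk signals through adaptors and exchange factors to Rac1, which drives the actin cup around the corpse, and TAM signaling also dampens the cytokine response of the phagocyte. In the involuting mouse mammary gland, where epithelial cells engulf their dying neighbors alongside macrophages, Mertk takes part in this clearance.

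The arrays differed in range. The median deposited intensity ran from 56.0 to 88.0 on the Rac1-/- arrays and from 40.6 to 71.5 on the WT arrays, and the interquartile range of log2 intensity ran from 1.23 to 1.98 and from 1.42 to 2.85 in the same groups. Nas497, a Rac1-/- mouse, and Nas484, a WT mouse, had the narrowest range of their groups and lay highest on the leading principal component (43.6% of the variance). The actin controls compare the 3' and 5' ends of that transcript as a sign of RNA quality, and their log2 difference ran from -1.24 to -0.30 in Rac1-/- and from -0.17 to 0.048 in WT, without overlap. The brightest Rac1 probe set read 9.51, 9.01 and 9.84 in the Rac1-/- mice and 9.31, 9.50 and 8.97 in the WT mice, and 1423734_at ran from 8.14 to 8.77 in the Rac1-/- mice and from 8.74 to 9.89 in the WT mice (log2 fold change -0.80, limma adjusted p = 0.948). A dim one, 1437674_at, had a value at the floor and also a lower mean in Rac1-/- glands. In whole glands these do not check the labels, and which exons were removed is not given in the sources used here. Milk protein genes and the secretory regulator Elf5, the markers of secretory epithelium, were present on every array with no value at the floor, and 5 of 5 had a lower mean in Rac1-/- glands. Values below are quantile-normalized log2 intensities, with values under 1 set to a floor of 1. Between genotypes a single probe set is compared only with itself, since probes differ in brightness. The summed level of a marker list adds the linear intensities of its genes, so the brightest genes weigh most in it. Median scaling, named below where it matters, multiplies each array to 1 shared median in place of quantile normalization.

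Gas6 and Mertk had a higher mean in Rac1-/- glands, though 1 of the 2 Gas6 probe sets turned just below 0 under median scaling. Tyro3 was lower in every Rac1-/- gland on 1 of its 2 probe sets, and no difference passed the test. In limma, 0 of the 8 probe sets had an adjusted p under 0.05, against 0% of the 45037 probe sets tested. At an unadjusted p under 0.05, 0 of 8 were higher (1.88% of all probe sets) and 2 of 8 were lower (2.17% of all), namely 1 probe set of Tyro3 and a dim probe set of Axl. The dim Axl probe set had a value at the floor, and its unadjusted p from limma was 0.301 with a floor of 16. The mean was higher in Rac1-/- glands on 5 of 8, against 49.3% of all probe sets (3 of 8 under median scaling), and the median log2 fold change was 0.27 over the 8 and -0.011 over all probe sets. The lowest Rac1-/- gland exceeded the highest WT gland on 2 of 8 (4.59% of all probe sets), both of them for Gas6, and the highest Rac1-/- gland lay under the lowest WT gland on 1 of 8 (4.86% of all), for Tyro3. Probe sets of 1 gene share the mice and the transcript, so they do not count as separate genes.

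**Figure D1:**
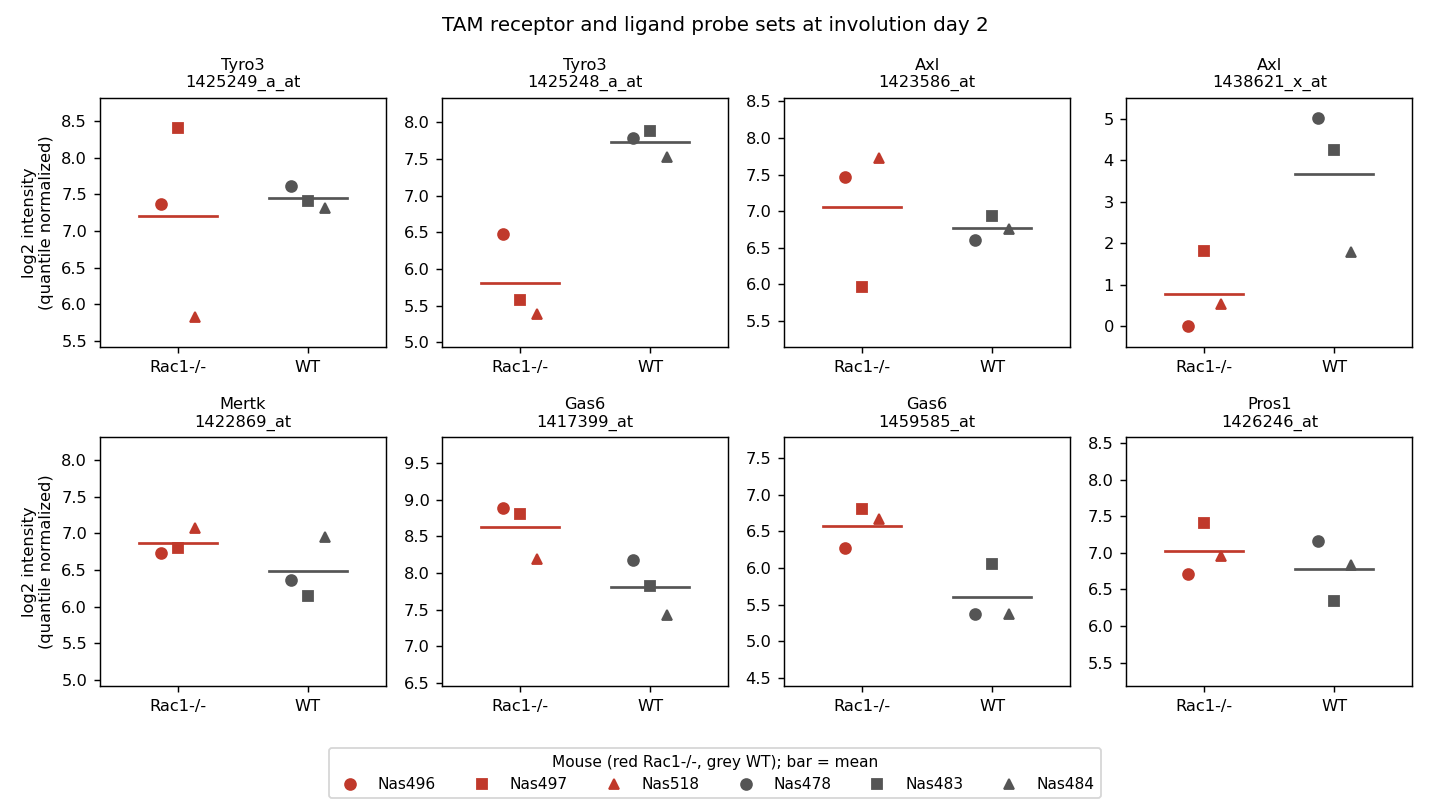
Quantile-normalized log2 intensity (vertical axis, a range of its own in each panel) of the 8 probe sets of Tyro3, Axl, Mertk, Gas6 and Pros1 at involution day 2. Each point is 1 mouse, 3 Rac1-/- in red and 3 WT in grey, and each bar is a group mean; the genotypes are separate on 1425248_a_at of Tyro3 (lower in Rac1-/-) and on both probe sets of Gas6 (higher in Rac1-/-), of which 1417399_at overlaps under median scaling.

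Tyro3, the receptor best known from the nervous system, differed between its probe sets, which share a source accession in the annotation. On 1425248_a_at the values were 6.48, 5.57 and 5.39 in the Rac1-/- mice Nas496, Nas497 and Nas518, against 7.79, 7.88 and 7.53 in the WT mice Nas478, Nas483 and Nas484. Every Rac1-/- gland lay more than 1 log2 unit below every WT gland. The deposited intensities, before quantile normalization, showed the same separation, with 84.5, 71.6 and 51.0 in Rac1-/- and 261, 274 and 171 in WT glands. The log2 fold change was -1.92 (SE 0.49, 95% interval -3.05 to -0.79), which is 0.264 of the WT level, with an unadjusted p of 0.00437 and an adjusted p of 0.948 from limma. This was the smallest unadjusted p among the 8 and rank 129 among all probe sets. The estimate stayed between -2.24 and -1.71 over 13 alternative settings. The genotypes stayed apart under median scaling and without normalization between arrays. The other settings leave out mice or keep these values, so they could hardly bring an overlap.

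On the other Tyro3 probe set, 1425249_a_at, the Rac1-/- mice read 7.37, 8.41 and 5.83, against 7.62, 7.41 and 7.31 in the WT mice. With quantile normalization the WT glands lay close together, and their values fell inside the Rac1-/- range. The Rac1-/- glands held both the highest value (Nas497) and the lowest (Nas518). The mean was 7.20 ± 1.30 in Rac1-/- and 7.45 ± 0.16 in WT glands (SD, n = 3 each), a difference of -0.25 in log2 (SE 0.68, adjusted p = 0.977 in limma). It turned to 0.45 without Nas518 and was -0.93 without Nas497. It was -1.08 without both Nas484 and Nas497 and -0.91 under median scaling. The size and the sign thus rest on single mice, and the size also on the scaling. The order of the mice rests on the scaling as well. In the deposited intensities Nas478 (226) lay above Nas497 (223). Under median scaling Nas478 (8.43) and Nas483 (7.95) lay above every Rac1-/- gland, of which Nas496 was highest at 7.55.

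The difference between both Tyro3 probe sets was taken within each mouse, as 1425248_a_at minus 1425249_a_at, which cancels a shift shared by both probe sets of an array. It was -0.89, -2.84 and -0.44 in the Rac1-/- mice, against 0.17, 0.47 and 0.22 in the WT mice, so the genotypes did not overlap. The genotype effects of the probe sets thus differed by -1.67, with an exact two-sided permutation p of 0.1, the smallest that 3 mice against 3 can give, and an adjusted p of 0.3 over the 3 genes with a pair. Once the actin difference between 3' and 5' ends entered the model, the effects were -1.71 and -1.51, and they differed by only -0.19 (SE 0.29). Without Nas497 they differed by -1.03, and without Nas484 and Nas497 by -1.14. Over the 6 mice the correlation between the probe sets was weak, with Pearson's r = 0.24 (exact permutation p = 0.681) and Spearman's rho = 0.31 (exact permutation p = 0.564), adjusted p = 0.681 and 0.564 over the 3 pairs, and r = 0.41 without Nas518 and Nas497, the mice farthest from the median. The suffix _a marks probes that match several transcripts of 1 gene, and where along the Tyro3 transcript each probe set lies is not given in the sources used here.

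**Figure D2:**
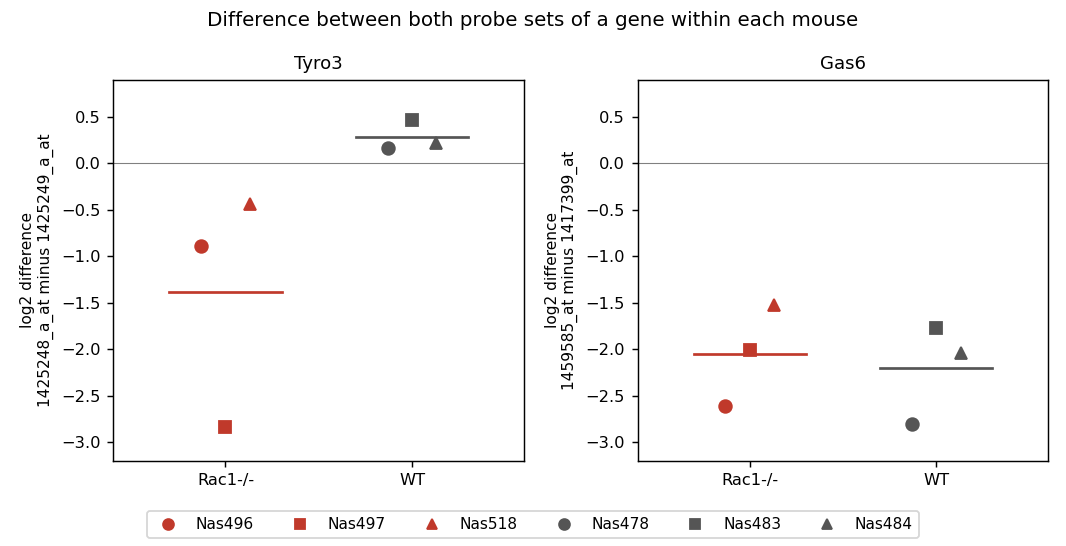
Difference in log2 intensity between both probe sets of Tyro3 (left) and of Gas6 (right) within each mouse, 3 Rac1-/- in red and 3 WT in grey, with the mean of each group as a bar; the height of a group above or below 0 reflects probe brightness, and only the comparison of genotypes is read. For Tyro3 the 3 Rac1-/- mice lie between -2.84 and -0.44, all below the WT mice, while for Gas6 the genotypes overlap.

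Other transcripts also differed between the genotypes in the same glands. Whether they follow the lower Tyro3 probe set from mouse to mouse was not tested. The 5 markers of secretory epithelium (Wap, Csn2, Csn3, Lalba and Elf5) had a summed log2 level of 16.01 to 16.50 in Rac1-/- and 17.07 to 17.48 in WT glands, without overlap, and a median log2 fold change of -1.45. The actin 3' minus 5' difference also separated the genotypes. With it in the model the estimate for 1425249_a_at moved close to that of 1425248_a_at, as given above. Among the Rac1-/- mice Nas497 held the lowest actin difference, -1.24, against -0.42 in Nas496 and -0.30 in Nas518. The actin difference and the genotype cannot be told apart on these arrays. The part of the secretory markers or of the actin difference in the Tyro3 values was not tested.

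Axl, a receptor of dendritic cells, inflamed macrophages and mesenchymal cells, was measured on 1 probe set well above the floor and on 1 very dim one. On 1423586_at the Rac1-/- mice read 7.47, 5.97 and 7.73, against 6.61, 6.93 and 6.76 in the WT mice. Nas496 and Nas518 lay above all WT glands and Nas497 below all of them. The mean was 7.05 ± 0.95 in Rac1-/- and 6.77 ± 0.16 in WT glands (SD, n = 3 each), a log2 fold change of 0.29 (SE 0.58, 95% interval -1.04 to 1.61, limma adjusted p = 0.968). Without Nas497 it was 0.91, and then the genotypes did not overlap. As the other Rac1-/- glands lay above all WT glands, leaving out Nas497 could hardly keep an overlap. In that setting 17.7% of all probe sets do not overlap. The log2 fold change was -0.053 without Nas518, 0.050 under median scaling and 1.38 once the actin difference entered the model.

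The dim Axl probe set, 1438621_x_at, whose suffix marks probes that may bind other transcripts, had deposited intensities of 0.058, 7.29 and 1.95 in Rac1-/- and 13.1, 6.93 and 5.39 in WT glands. It lay in the lowest 0.588% of probe sets by mean, and Nas496 was at the floor after normalization. No fold change is therefore read from it, and the comparison of both Axl probe sets rests on that floor (exact two-sided permutation p = 0.2, n = 3 each, adjusted p = 0.3). The sign did not turn in any setting, and the log2 estimate shrank to -0.42 with a floor of 16. Averaging both probe sets of Axl, as some array analyses do, turned the gene from 0.29 to -1.31, and that value comes from the dim probe set.

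Mertk, a receptor of macrophages and other phagocytes that clear dead cells, read 6.73, 6.81 and 7.07 in the Rac1-/- mice, against 6.36, 6.15 and 6.95 in the WT mice. With quantile normalization the Rac1-/- glands lay close together, above Nas478 and Nas483, and Nas484 lay inside their range. The mean was 6.87 ± 0.18 in Rac1-/- and 6.49 ± 0.42 in WT glands (SD, n = 3 each), with a log2 fold change of 0.38 (SE 0.46, 95% interval -0.68 to 1.44, limma adjusted p = 0.953). The estimate was above 0 under 15 of 15 alternatives, from 0.20 without Nas483 to 0.77 without Nas484 and Nas497. Not all of these could move it. Raising the floor, keeping bright probe sets, summarizing by gene or changing the prior variance left it at 0.38. Without Nas484 alone it was 0.64 and the genotypes no longer overlapped. Since Nas478 and Nas483 lay below all Rac1-/- glands, leaving out Nas484 could hardly keep an overlap. In that setting 29.8% of all probe sets do not overlap.

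Markers of macrophages, a cell type that carries Mertk, had a higher mean in Rac1-/- glands for 8 of 9 genes, but for 3 of 9 under median scaling, and the median of their log2 fold changes was 0.65, or -0.15 under median scaling. Their summed log2 level was 11.34 to 12.42 in Rac1-/- and 10.79 to 11.66 in WT glands, with overlap and no marker at the floor. For dendritic cells, 4 of 4 markers had a higher mean (2 of 4 without Nas497) and the sums were 8.16 to 8.71 in Rac1-/- and 7.23 to 7.91 in WT glands, without overlap. By gene, Itgax and Xcr1 separated the genotypes (5.41% of all genes separate upward), while Flt3 and Zbtb46 overlapped. The part of these cells in the Mertk and Axl values was not tested.

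Gas6, the ligand of all the receptors, had a higher quantile-normalized mean in Rac1-/- glands on both of its probe sets, and neither passed the test. On 1417399_at the Rac1-/- mice read 8.89, 8.81 and 8.19, against 8.17, 7.82 and 7.42 in the WT mice. The genotypes did not overlap, but Nas518 and Nas478 were only just apart. The mean was 8.63 ± 0.38 in Rac1-/- and 7.80 ± 0.38 in WT glands (SD, n = 3 each), a log2 fold change of 0.82 (SE 0.48, 95% interval -0.27 to 1.92, limma adjusted p = 0.948), or 1.77-fold.

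This separation on 1417399_at came with the quantile normalization. The deposited intensities were 517, 261 and 265 in Rac1-/- and 362, 259 and 160 in WT glands, which overlap. Under median scaling the log2 values were 9.17, 7.53 and 7.85 in Rac1-/- and 9.11, 8.47 and 7.12 in WT glands, and the log2 fold change was -0.056. Without normalization between arrays it was 0.42, and the median of all probe sets was then 0.37.

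The other Gas6 probe set, 1459585_at, read 6.27, 6.80 and 6.66 in the Rac1-/- mice, against 5.37, 6.05 and 5.38 in the WT mice. No Rac1-/- gland reached down to the highest WT gland, Nas483. The mean was 6.58 ± 0.27 in Rac1-/- and 5.60 ± 0.39 in WT glands (SD, n = 3 each), with a log2 fold change of 0.98 (SE 0.47, 95% interval -0.089 to 2.05, limma adjusted p = 0.948), or 1.97-fold. The deposited intensities also separated, at 71.5, 126 and 107 in Rac1-/- and 20.9, 49.4 and 50.9 in WT glands. The estimate ran from 0.80 without Nas478 to 1.40 without normalization between arrays, over 13 alternatives. Under median scaling and without normalization the genotypes stayed apart. The other alternatives leave out mice or keep these values, so they could hardly bring an overlap.

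With quantile normalization both Gas6 probe sets gave genotype effects of like size. Their difference within a mouse, 1459585_at minus 1417399_at, was -2.05 ± 0.55 in Rac1-/- and -2.21 ± 0.54 in WT glands (SD, n = 3 each), and the effects differed by 0.16 (exact two-sided permutation p = 0.7, adjusted p = 0.7). Under median scaling they differed by 0.99 (exact two-sided permutation p = 0.4, n = 3 each), and leaving out single mice gave from -0.16 to 0.42, so a p of this size does not show that the probe sets act alike. Across the 6 mice the correlation was r = 0.65 (exact permutation p = 0.171) and rho = 0.66 (exact permutation p = 0.175), with adjusted p = 0.512 and 0.263, and r = 0.54 without Nas484 and Nas496. For the Axl pair, with its value at the floor, r was -0.47 and rho -0.66 (exact permutation p = 0.347 and 0.175, adjusted p = 0.521 and 0.263), and r was -0.79 without Nas518 and Nas497.

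Beside Gas6, a secreted protein of mesenchymal, endothelial and epithelial cells, the summed log2 level of myoepithelial markers was 10.98 to 11.69 in Rac1-/- and 10.20 to 10.78 in WT glands, without overlap. That of luminal keratins and adhesion genes was 12.27 to 12.36 in Rac1-/- and 11.94 to 12.19 in WT glands, also without overlap. The medians of these lists were 0.34 and 0.27, and they turned to -0.37 and -0.75 under median scaling, where 5 of 5 luminal genes were lower. By gene, only Acta2 of the myoepithelial and Krt18 of the luminal list separated the genotypes (5.41% of all genes separate upward). Krt5, Krt19 and Epcam had a lower mean. How often such sums separate for other lists of genes was not computed. For fibroblasts the sums overlapped, with 12.76 to 14.13 in Rac1-/- and 13.36 to 13.89 in WT glands, and likewise for endothelium, with 9.38 to 9.89 and 9.22 to 10.86 in the same groups. The part of these cell types in the Gas6 values was not tested.

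Pros1, the gene of the anticoagulant protein S, read 6.71, 7.41 and 6.95 in the Rac1-/- mice, against 7.16, 6.34 and 6.83 in the WT mice. The genotypes overlapped through most of their range. The mean was 7.03 ± 0.35 in Rac1-/- and 6.78 ± 0.41 in WT glands (SD, n = 3 each), a log2 fold change of 0.25 (SE 0.48, 95% interval -0.85 to 1.34, limma adjusted p = 0.967). It was -0.19 under median scaling, -0.12 once the actin difference entered the model and 0.10 without Nas484 and Nas497. Whether the effect on Gas6 differs from that on Pros1 was not tested.

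**Figure D3:**
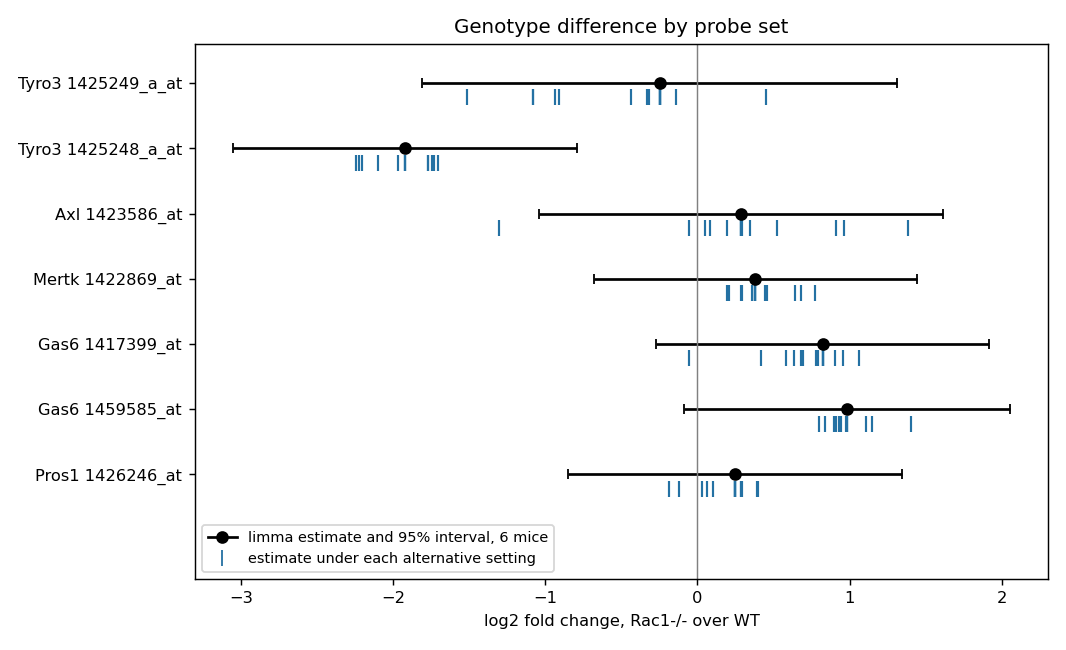
Log2 fold change, Rac1-/- over WT, for the 7 probe sets with no value at the floor; black points and bars are limma estimates and 95% intervals over 3 Rac1-/- and 3 WT mice, and blue ticks are the estimates under each alternative setting. The interval lies below 0 only for 1425248_a_at of Tyro3 (-3.05 to -0.79, adjusted p = 0.948), and the tick at -1.31 for Axl averages in its dim probe set.

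The spread among the Rac1-/- mice was uneven over the family. For 1425249_a_at of Tyro3 and 1423586_at of Axl the SD was 1.30 and 0.95 in Rac1-/- glands and 0.16 and 0.16 in WT glands. Nas497 was highest for Tyro3 and lowest for Axl, and Nas518 was lowest for Tyro3 and highest for Axl. This contrast rests on the quantile normalization. Under median scaling 1425249_a_at of Tyro3 read 7.55, 7.30 and 5.85 in Nas496, Nas497 and Nas518. The WT mice Nas478, Nas483 and Nas484 then read 8.43, 7.95 and 7.03, so they were not close together and Nas497 was not highest. For Axl, Nas497 stayed lowest (5.96), but Nas496 (7.66) lay above Nas518 (7.42). With quantile normalization Mertk ran the other way, with an SD of 0.18 in Rac1-/- and 0.42 in WT glands. The range over all 6 mice was 0.93 for Mertk and 1.07 for Pros1, against 2.58 for 1425249_a_at of Tyro3 (log2 units).

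The transcripts around the receptors showed no common shift with quantile normalization. Of 32 genes listed for the pathway, 29 had a probe set with a single symbol, 14 with a higher (53.9% of all genes) and 15 with a lower mean in Rac1-/- glands, and their median log2 fold change was -0.041, against 0.060 over 18193 genes. In limma 0 of 29 had an adjusted p under 0.05, 1 had an unadjusted p under 0.05 (3.4% of all genes), and 3 separated the genotypes without overlap, 1 upward (5.41% of all genes) and 2 downward (4.21% of all genes), which is near the background. Under median scaling 8 of 29 had a higher mean and the median was -0.53, against 46.0% and -0.096 over all probe sets. At that scaling a background with 1 probe set per gene was not computed. The other listed genes were not analysed here.

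Among other ligands, Lgals3, a galectin and ligand for Mertk, stood at 0.57 on the log2 scale (SE 0.58), or 0.0069 under median scaling, and Tub, a bridging protein known from the retina, had 0.35 (SE 0.45). The carboxylation of Gas6 and protein S needs Ggcx, the carboxylase, with 0.19 (SE 0.46), and Vkorc1, the vitamin K reductase that warfarin blocks, with -0.70 (SE 0.67), or -1.06 under median scaling. Under median scaling Ggcx was at -0.24. These 4 genes overlapped between genotypes.

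The sheddases that cut Axl and Mertk from the cell surface differed in sign. Adam10 read 7.71, 7.38 and 7.71 in the Rac1-/- mice, against 8.03, 7.88 and 8.51 in the WT mice, without overlap and with a log2 fold change of -0.54 (SE 0.45), or -1.17 under median scaling. Adam17 had 0.087 (SE 0.50), or -0.34 under median scaling. Of 5 nuclear receptors that act upstream of Mertk in mouse macrophages, 4 had a lower mean in Rac1-/- glands. Rxrb, a partner receptor, read 5.77, 5.58 and 5.35 in Rac1-/-, against 6.28, 6.52 and 6.23 in WT glands, without overlap and at -0.78 (SE 0.44). Ppard had -1.36 (SE 0.86), with Nas484 at 9.21 and the other WT mice at 6.12 and 6.27.

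Among 11 genes of the signaling route from the receptors to actin, 5 had a higher and 6 a lower mean in Rac1-/- glands, with 3 higher without Nas518 or without Nas484 and 2 higher under median scaling. Elmo1, which with Dock1 activates Rac1, read 7.68, 9.44 and 8.57 in the Rac1-/- mice, against 6.99, 7.10 and 6.93 in the WT mice. The genotypes did not overlap, and the log2 fold change was 1.56 (SE 0.55, unadjusted p = 0.0224, limma adjusted p = 0.948), or 0.73 under median scaling. Dock1 itself had -0.55 (SE 0.50), or -1.28 under median scaling, and overlapped. Akt1, a survival kinase, had -0.84 (SE 0.53), or -1.50 under median scaling. Of 5 genes through which TAM receptors dampen inflammation, 4 had a higher mean, or 3 under median scaling. Twist2, a repressor of cytokine transcription, had 0.62 (SE 0.48), and Ifnar1, the interferon receptor chain that Axl engages in mouse dendritic cells, had 0.37 (SE 0.53), or -0.19 under median scaling.

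**Figure D4:**
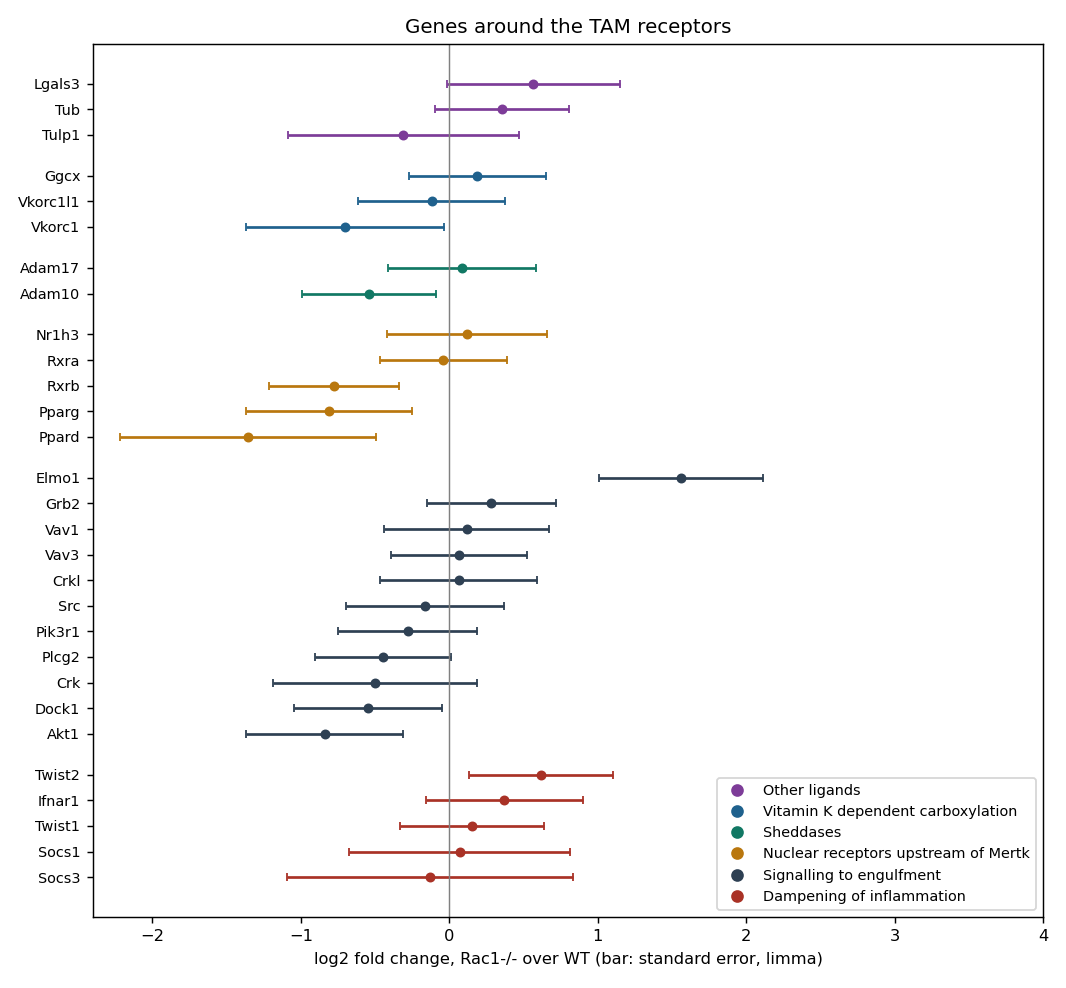
Log2 fold change, Rac1-/- over WT, of 29 genes around the TAM receptors, grouped and colored by role, with bars for the standard error from limma (3 mice per genotype). Elmo1 at 1.56 and Ppard at -1.36 lie farthest from 0, and 14 genes are right of 0 with quantile normalization, against 8 under median scaling.

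For each member the 3 genes were sought whose log2 values over the 6 arrays were most like its own, among 9091 genes with a mean above the median. Likeness of this height is common with 6 arrays, since between 32 and 102 of these genes had r over 0.9 with each member, and all share the normalization. Closest to Gas6 was Wls, the carrier of secreted Wnt proteins (r = 0.990), which had a log2 fold change of 0.82 (SE 0.46), followed by Itpripl1 (0.974) and Inpp5e (0.967). Closest to Mertk were Cxcl13, a B cell attractant (r = 0.990), Ang (0.987) and Lce1i (0.987). Axl, on 1423586_at, was nearest to Maob (r = 0.997), Rab11a, a small GTPase of recycling endosomes (0.995), and Cd200 (0.981). Tyro3, on 1425249_a_at, was nearest to AW209491 (r = 0.988), Rhbdf2 (0.986) and Prss53 (0.984), and Pros1 to Ddx50 (r = 0.980), Fip1l1 (0.980) and Arrb2 (0.970). No gene was among the nearest 3 of more than 1 member.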

How the data were processed

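RNA from the inguinal gland of each mouse was amplified with the Affymetrix Sensation kit and hybridized to mouse GeneChip arrays, and quality was checked in Expression Console. The deposited values are linear intensities, 1 for each probe set and mouse. How probes were summarized is not given in the sources used here. Trimming 2% of probe sets from either end leaves a mean of 100 on every array, so each array had been scaled on its own. Here the intensities went through limma's quantile normalization (version 3.58.1, R 4.3.3), were floored at 1 and taken to log2. Control probe sets (64) were then left out, and lmFit and eBayes were run on genotype over 45037 probe sets with Benjamini-Hochberg adjustment at 0.05. List genes took their probe set with the highest mean. Symbols of all 8 probe sets matched a RefSeq table of GRCm38.p6 through the Entrez ID. The number of arrays limits the precision. The model was tested on simulated data. Members, lists and settings were chosen with earlier results of these data known, and the genes named are all members, the 2 of each pathway list with the smallest p and the 3 most like each member. Dock1 was named after its values were seen. Alternatives left out each mouse, or Nas484 with Nas497, scaled to a common median, left out normalization, raised the floor to 16, kept bright probe sets, took 1 probe set or their mean per gene, let the prior variance follow the mean, or took actin as a covariate.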

Additional observations from a re-analysis of the deposited data

How the results depend on the processing

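No TAM probe set passed limma's adjusted threshold under any of 15 alternatives (smallest adjusted p = 0.276, for the dim Axl probe set without Nas484). Direction was kept under every alternative tried by 1425248_a_at of Tyro3, by Mertk and by 1459585_at of Gas6. Some of these alternatives leave such a fold change as it is and could not turn it. The dim Axl probe set also kept its direction, but it has a value at the floor and its direction is not read. The difference between the Tyro3 probe sets (-1.67) shrank to -0.19 with the actin covariate, and leaving out single mice gave from -2.22 to -1.03; for Gas6 (0.16) single mice gave from -0.16 (without Nas478) to 0.42 (without Nas496), with -0.089 without Nas518. These checks of the probe set differences were chosen after seeing the data. Scaling to a common median turned 1417399_at of Gas6 to -0.056 and Pros1 to -0.19, and left 3 probe sets with a higher mean in Rac1-/- glands in place of 5. The actin covariate turned Pros1 to -0.12, and averaging in the dim probe set turned Axl to -1.31. Leaving out single mice gave from -0.93 (without Nas497) to 0.45 (without Nas518) for 1425249_a_at of Tyro3 and from -0.053 (without Nas518) to 0.91 (without Nas497) for 1423586_at of Axl. The count of probe sets without overlap ran from 3 to 5 when 1 mouse was left out (5 without Nas497, where 17.7% of all probe sets do not overlap, and 5 without Nas484, where 29.8% do not), and was 7 without both, where 39.5% of all probe sets do not overlap, since fewer mice overlap less often. No paired analysis was possible because the labels give no replicate numbers that link mice of different genotype. Where probe sets read below about the floor of 16, as on 1438621_x_at of Axl, intensity limits any comparison.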
